A study of Homo sapiens with 6 samples.

Results

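The 44 genes described here form the signalling core that runs from insulin and IGF receptors through phosphoinositide 3-kinase (PI3K) and AKT to mTOR. They were taken by symbol from a list that was chosen with earlier results of these data known. All 44 were found among the 60612 genes of each expression table. RNA was measured in HCT116, a long-established line of human colorectal carcinoma, to ask what overexpression of the small nucleolar RNA SNORA28 changes. LV-NC (3 libraries) came from cells infected with a control lentivirus, which carries a short control sequence, and LV-SNORA28 (3 libraries) from cells infected with a lentivirus carrying SNORA28. All 6 libraries therefore came from lentivirus-infected cells of 1 line, read at 1 time, and HCT116 is known to carry a mutant allele of PIK3CA that the gene totals do not separate. Nothing in the labels says that the 3 libraries of a group came from separate cultures, so p-values measure the spread between these libraries, which may be technical.

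In this pathway, activated receptors and the adaptors IRS1 and IRS2 recruit PI3K, which makes the membrane lipid PIP3. PIP3 brings PDPK1 and AKT to the membrane, where AKT is phosphorylated by PDPK1 and by mTOR complex 2. AKT then holds FOXO factors out of the nucleus and restrains the TSC complex, which frees the GTPase RHEB to activate mTOR complex 1 and, through S6 kinases, protein synthesis. Amino acids act on mTOR complex 1 by a separate branch, in which Rag GTPases carry the complex to the lysosome. Most of this control is exerted on proteins by phosphorylation, which the RNA values here do not measure.

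Expression was given as FPKM, a count of fragments divided by transcript length and by all mapped fragments, which is a level per length and can be compared between genes. SNORA28 itself was listed at 0.92, 0 and 0.64 FPKM with LV-NC and at 15.01, 13.66 and 15.2 FPKM with LV-SNORA28. The epithelial markers EPCAM (96.9 to 115 FPKM) and KRT19 (358 to 412 FPKM) were high in all 6 libraries, the fibroblast markers COL1A2 and DCN were listed at 0, and the leukocyte marker PTPRC did not exceed 0.08 FPKM. The other fibroblast marker, COL1A1, was between 3.16 and 4.46 FPKM in all 6 libraries. The leukocyte marker CD68 was between 0.95 and 2.07 FPKM with LV-NC and between 2.27 and 4.12 FPKM with LV-SNORA28, without overlap (log2 fold change 0.64, adjusted p 0.134 in limma), while CD3E and the endothelial markers PECAM1 and CDH5 did not exceed 0.02 FPKM. The part of the source of CD68 RNA in the results was not tested. Mitochondrially encoded RNA took 42.7% to 47.7% of the FPKM sum with LV-NC and 35.9% to 38.3% in LV-SNORA28. FPKM is relative, and the remaining genes took a larger part of the FPKM sum in LV-SNORA28. The sum itself was lower there, with a mean of 315000 against 349600 with LV-NC (n = 3 per group). The summed FPKM of the 44 genes was 294 ± 10.5 (SD, n = 3) with LV-NC and 328 ± 7.98 (SD, n = 3) with LV-SNORA28. The groups did not overlap, with an exact two-sided permutation p of 0.1, the smallest that 3 against 3 libraries allow.

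Of the 44 genes, 41 had a mean of at least 1 FPKM and entered the limma fit of 12076 genes, and PIK3R1, PIK3R3 and SGK1 lay below. RRAGC, MTOR and PHLPP2 rose in LV-SNORA28 and no gene of the core fell, at an adjusted p below 0.05. Thus 3 of 41 were called higher, beside 6.81% of all genes tested, and 0 of 41 were called lower, beside 2.10%. Both shares are near the background. PHLPP2 lay below 1 FPKM in all LV-NC libraries and passed the filter through its LV-SNORA28 libraries. Without the adjustment, 14 of 41 (12 higher and 2 lower) had a limma p below 0.05, beside 28.0% of all genes. The study's own threshold (p below 0.05 without adjustment and a change above 1.5-fold) was applied to the limma fit of log2(FPKM + 1). There RRAGC and PDPK1 passed, 2 of 41 beside 3.79% of all genes. The study's own test was not rerun, so these counts are not its outcome. MTOR and PHLPP2 had ratios of mean FPKM of 1.56 and 1.86 but lay below 1.5-fold on the log2(FPKM + 1) scale. With a pseudocount of 0.1, 5 genes passed. The share of all genes at that pseudocount is not given, so this count cannot be set beside 3.79%. The median log2 fold change of the 41 genes was 0.09, the same as over all genes tested (0.09), and 29 of 41 values (70.7%) were positive, beside 66.7% of all genes. In 11 of 41 genes all LV-SNORA28 libraries lay above all LV-NC libraries, beside 27.0% of all genes, and in 2 of 41 they lay below, beside 8.16%.

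**Figure D1:**
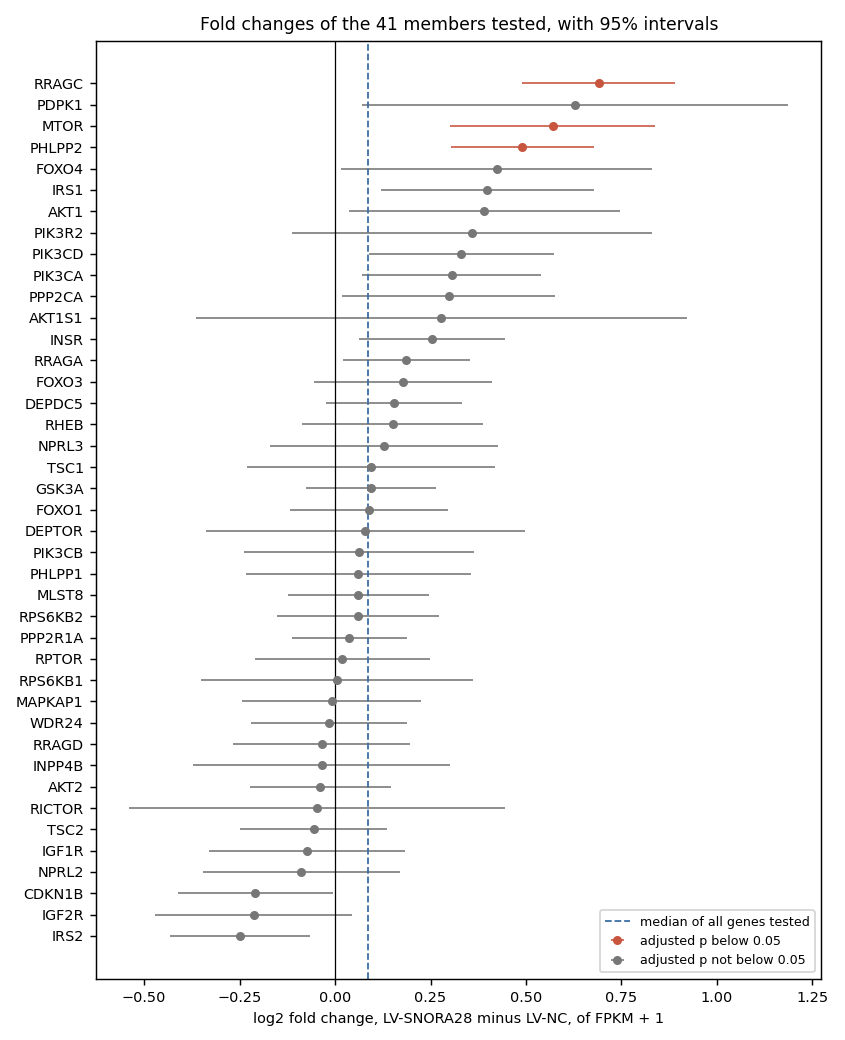
Log2 fold change of each of the 41 genes tested (horizontal axis, LV-SNORA28 minus LV-NC, on the log2(FPKM + 1) scale), ordered by size, with its 95% confidence interval from limma (n = 3 per group), the genes with an adjusted p below 0.05 in red and the median of all genes tested as a dashed line. The 3 called genes lie at 0.69 (RRAGC), 0.57 (MTOR) and 0.49 (PHLPP2). The other genes run from PDPK1 at 0.63, which lies between RRAGC and MTOR and was not called, down to IRS2 at -0.25.

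The promoters of the 3 called genes are shown because these are the members of the core whose RNA rose. Each run holds 250 bases before and 50 after the transcription start in RefSeq (GRCh38.p14, all on the minus strand), written 5′ to 3′. They come from chr1:38859723-38860022 (RRAGC), chr1:11262502-11262801 (MTOR) and chr16:71724652-71724951 (PHLPP2).

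RRAGC: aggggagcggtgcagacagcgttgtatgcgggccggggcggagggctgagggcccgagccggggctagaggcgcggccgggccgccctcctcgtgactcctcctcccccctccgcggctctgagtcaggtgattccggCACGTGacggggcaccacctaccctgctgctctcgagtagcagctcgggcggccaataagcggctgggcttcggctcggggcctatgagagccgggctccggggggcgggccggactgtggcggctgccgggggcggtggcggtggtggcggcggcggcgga

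MTOR: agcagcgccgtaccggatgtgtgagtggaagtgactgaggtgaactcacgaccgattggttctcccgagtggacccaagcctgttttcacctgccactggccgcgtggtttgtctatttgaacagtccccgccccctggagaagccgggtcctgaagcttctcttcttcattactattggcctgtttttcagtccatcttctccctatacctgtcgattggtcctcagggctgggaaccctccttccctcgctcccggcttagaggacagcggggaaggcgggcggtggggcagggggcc

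PHLPP2: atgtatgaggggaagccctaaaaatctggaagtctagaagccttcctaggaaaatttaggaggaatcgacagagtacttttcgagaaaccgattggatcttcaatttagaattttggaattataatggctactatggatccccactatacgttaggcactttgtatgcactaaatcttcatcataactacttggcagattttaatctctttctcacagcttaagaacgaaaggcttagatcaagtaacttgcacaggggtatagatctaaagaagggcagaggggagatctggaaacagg

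Capitals mark CACGTG, the core of the motif of TFEB, a lysosomal transcription factor that mTOR complex 1 regulates. It stands 112 bases before the start of RRAGC and is not in the windows of MTOR and PHLPP2. The RRAGC window is 75.3% G and C with 35 CpG dinucleotides, that of MTOR 59.3% with 16, and that of PHLPP2 39.7% with 5, beside a median of 58.7% over all 35116 promoters. Promoters were listed for 38 of the 44 genes, 66 windows in all; MLST8, AKT1S1, WDR24, RRAGD, DEPTOR and RRAGA had none. CACGTG, searched on both strands, was in 9.09% of the 66 windows (IGF2R, INPP4B, IRS1, NPRL3, RRAGC and TSC2) and in 7.26% of all promoters. TGTTTAC, a FOXO motif searched on both strands, was in 3.03% of the windows (FOXO4 and PIK3CA) and in 3.42% of all promoters. Neither motif contains the other. Such matches are descriptions and not sites of binding.

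**Figure D2:**
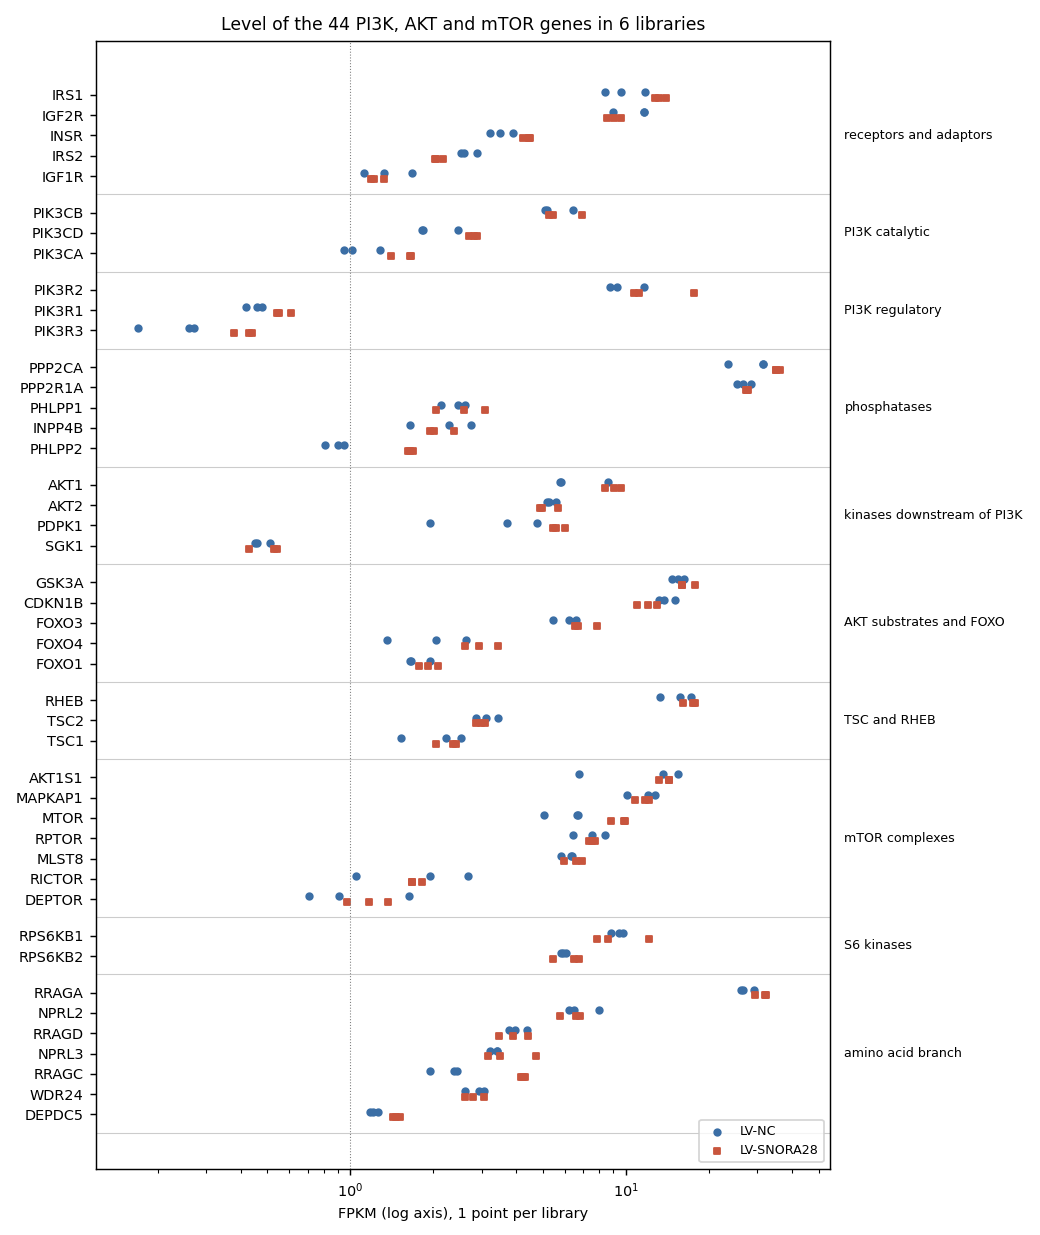
FPKM of the 44 genes of the core on a log axis, grouped by role, with 1 point per library (blue circles LV-NC, red squares LV-SNORA28, n = 3 per group) and a dotted line at 1 FPKM. The 3 LV-SNORA28 points of RRAGC, MTOR and PHLPP2 lie above all 3 LV-NC points, while the points of AKT1 overlap.

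In the amino acid branch, RRAGC, one of the Rag GTPases that dock mTOR complex 1 on the lysosome, had the largest log2 fold change of the 41 genes tested. RRAGC (ENSG00000116954, chromosome 1, 38838198 to 38859772, minus strand, GRCh38) was at 1.95, 2.38 and 2.43 FPKM with LV-NC and at 4.24, 4.31 and 4.17 FPKM with LV-SNORA28. The groups were far apart and the LV-SNORA28 libraries were close to each other, with an SD of 0.07 FPKM (n = 3). The ratio of the group means was 1.88, and the log2 fold change was 0.69 (SE 0.08, adjusted p 0.00901 in limma). The call held in every alternative fit that included the gene, with adjusted p between 0.00925 and 0.0423 in limma. The filter at a mean of 5 FPKM left it out.

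The other 6 genes of the branch were not called. RRAGA, the partner of RRAGC in the Rag dimer, had the second highest level of the core, 27.3 ± 1.62 FPKM (SD, n = 3) with LV-NC and 31.2 ± 1.57 FPKM (SD, n = 3) with LV-SNORA28. The log2 fold change of RRAGA was 0.19 (adjusted p 0.140 in limma). RRAGD, which can take the place of RRAGC, was at 4.39, 3.95 and 3.76 FPKM with LV-NC and 3.46, 3.9 and 4.41 FPKM with LV-SNORA28, so the groups overlapped. RRAGD had a log2 fold change of -0.03 (95% interval -0.27 to 0.20). DEPDC5, NPRL2 and NPRL3 form GATOR1, which switches the Rag GTPases off. DEPDC5 was at 1.26, 1.18 and 1.21 FPKM with LV-NC and at 1.51, 1.43 and 1.46 FPKM with LV-SNORA28, without overlap, but its log2 fold change of 0.15 did not pass (adjusted p 0.235 in limma). NPRL2 and NPRL3 overlapped between the groups, with log2 fold changes of -0.09 and 0.13, as did WDR24 of the opposing GATOR2 complex, with -0.02.

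Of the 7 genes of the mTOR complexes, only the kinase MTOR rose. MTOR (ENSG00000198793, chromosome 1, 11106535 to 11262556, minus strand) was at 6.62, 5.04 and 6.7 FPKM with LV-NC and at 9.84, 8.82 and 9.89 FPKM with LV-SNORA28. Every LV-SNORA28 library exceeded every LV-NC library, and the second library of each group was the lowest. The ratio of the means was 1.56, and the log2 fold change was 0.57 (SE 0.11, adjusted p 0.0308 in limma). The call was not firm. It was lost without LV-NC 1 (adjusted p 0.0534 in limma), LV-NC 3 (0.0587), LV-SNORA28 1 (0.0889), LV-SNORA28 2 (0.0771) or LV-SNORA28 3 (0.107), and with no filter on low values (0.0843).

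None of the 6 partners of the kinase was called, and their log2 fold changes ran from -0.05 (RICTOR) to 0.28 (AKT1S1). RPTOR, which defines complex 1, was at 7.45 ± 0.982 FPKM (SD, n = 3) with LV-NC and 7.52 ± 0.186 FPKM (SD, n = 3) with LV-SNORA28, a log2 fold change of 0.02 (95% interval -0.21 to 0.25) that turned to -0.08 with quantile normalization. RICTOR, which defines complex 2, was at 2.68, 1.05 and 1.94 FPKM with LV-NC and 1.67, 1.82 and 1.67 FPKM with LV-SNORA28. The LV-NC libraries spanned the others, and the interval of its log2 fold change, -0.54 to 0.44, was wide. MLST8, shared by both complexes, had a log2 fold change of 0.06, and MAPKAP1 of complex 2 had -0.01. The inhibitor DEPTOR was low in all libraries, between 0.71 and 1.63 FPKM, with a log2 fold change of 0.08. AKT1S1, an inhibitor of complex 1 that AKT phosphorylates, was at 6.76 FPKM with LV-NC 1 against 15.39 and 13.61 FPKM in LV-NC 2 and 3. AKT1S1 had a log2 fold change of 0.28 (adjusted p 0.546 in limma) and -0.05 without LV-NC 1. AKT1S1 overlaps TBC1D17 on the opposite strand, and whether fragments were counted by strand was not stated.

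Among the phosphatases, PHLPP2, which removes an activating phosphate from AKT, rose from a low level. PHLPP2 (ENSG00000040199, chromosome 16, 71637835 to 71724701, minus strand) was at 0.9, 0.81 and 0.95 FPKM with LV-NC and at 1.64, 1.62 and 1.69 FPKM with LV-SNORA28. The groups were clearly apart and the libraries within each close. Its LV-NC mean of 0.89 FPKM is below the filter of 1 FPKM, which PHLPP2 passed through its LV-SNORA28 libraries. It was thus tested because of the group where it is high. The ratio of the means was 1.86, and the log2 fold change, which the pseudocount of 1 makes smaller at this level, was 0.49 (SE 0.08, adjusted p 0.0178 in limma). The call was lost without LV-NC 2 (adjusted p 0.0520 in limma), LV-SNORA28 1 (0.0579), LV-SNORA28 2 (0.0722) or LV-SNORA28 3 (0.0770), and with no filter (0.0654). With the replicate block it was also lost (adjusted p 0.0548 in limma). PHLPP2 overlaps MARVELD3 on the opposite strand, which had 2.53 and 3.01 FPKM in the 2 groups and a log2 fold change of 0.19 (adjusted p 0.147 in limma).

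PHLPP1, its paralog, was at 2.46, 2.14 and 2.6 FPKM with LV-NC and 2.58, 2.05 and 3.07 FPKM with LV-SNORA28, with a log2 fold change of 0.06 that turned to -0.02 with quantile normalization. INPP4B, which acts on phosphoinositide lipids, had -0.04. The PP2A scaffold PPP2R1A (26.8 and 27.5 FPKM) and catalytic subunit PPP2CA (28.8 and 35.3 FPKM) were among the most abundant genes of the core. PPP2CA was at 23.52, 31.51 and 31.42 FPKM with LV-NC and 35.05, 36.09 and 34.89 FPKM with LV-SNORA28. No values overlapped, with LV-NC 1 the lowest library, and the log2 fold change of 0.30 did not pass (adjusted p 0.157 in limma). It was 0.16 without LV-NC 1 and 0.15 with the GC trend removed.

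No receptor or adaptor was called, but the adaptors IRS1 and IRS2 stood at opposite sides of 0. IRS1 was at 11.75, 8.41 and 9.57 FPKM with LV-NC and at 13.17, 12.74 and 13.94 FPKM with LV-SNORA28, without overlap. Its log2 fold change was 0.40 (SE 0.12, adjusted p 0.0826 in limma), and it was 0.52 without LV-NC 1 (adjusted p 0.0358 in limma). IRS2 was at 2.89, 2.52 and 2.58 FPKM with LV-NC and at 2.04, 2.03 and 2.17 FPKM with LV-SNORA28. All its LV-SNORA28 libraries lay lower, with a log2 fold change of -0.25 (SE 0.08) and an adjusted p of 0.0940 in limma. With quantile normalization IRS2 was called lower (log2 fold change -0.34, adjusted p 0.0323 in limma).

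The insulin receptor INSR was at 3.88, 3.2 and 3.5 FPKM with LV-NC and at 4.45, 4.24 and 4.47 FPKM with LV-SNORA28. Again the groups were apart, and the log2 fold change was 0.25 (adjusted p 0.0986 in limma). IGF1R, its closest relative among the receptors, was at 1.37 ± 0.278 FPKM (SD, n = 3) and 1.24 ± 0.0681 FPKM (SD, n = 3), a log2 fold change of -0.07 (95% interval -0.33 to 0.18). IGF2R, which takes up IGF2 and does not signal through PI3K, had -0.21 (adjusted p 0.256 in limma), with overlapping groups.

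None of the PI3K subunits was called. Of the catalytic subunits, PIK3CA was at 1.28, 0.95 and 1.01 FPKM with LV-NC and at 1.4, 1.64 and 1.66 FPKM with LV-SNORA28, without overlap. Its log2 fold change was 0.31 (SE 0.10, adjusted p 0.104 in limma), and it was 0.11 with the GC trend removed (adjusted p 0.446 in limma). PIK3CD was at 2.45, 1.82 and 1.83 FPKM with LV-NC and at 2.82, 2.87 and 2.7 FPKM with LV-SNORA28, also without overlap. Its log2 fold change was 0.33 (SE 0.10, adjusted p 0.0933 in limma), and it was 0.43 without LV-NC 1 (adjusted p 0.0441 in limma). PIK3CD shares its locus with the antisense gene PIK3CD-AS2, at 5.75 and 4.57 FPKM in the 2 groups, and with CLSTN1, at 42.9 and 42.1 FPKM. PIK3CB was the most abundant of these 3 catalytic subunits at 5.56 ± 0.772 FPKM (SD, n = 3) with LV-NC and 5.86 ± 0.911 FPKM (SD, n = 3) with LV-SNORA28. Its log2 fold change of 0.06 turned to -0.04 with quantile normalization and to -0.08 with the GC trend removed.

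As a share of the summed FPKM of the 3 catalytic genes, PIK3CB took 64.0% ± 5.98 (SD, n = 3) with LV-NC and 57.1% ± 3.65 (SD, n = 3) with LV-SNORA28. The groups overlapped, with an exact two-sided permutation p of 0.2. The share of PIK3CA was 12.5% ± 1.88 (SD, n = 3) and 15.3% ± 1.01 (SD, n = 3), without overlap, with an exact permutation p of 0.1. Of the summed FPKM of PIK3R1, PIK3R2 and PIK3R3, PIK3R2 took 93.4% ± 1.21 (SD, n = 3) with LV-NC and 92.8% ± 1.49 (SD, n = 3) with LV-SNORA28. Outside the 44 genes, the regulatory subunit PIK3R4 was at 6.04 and 6.80 FPKM and the class II catalytic subunit PIK3C2A at 6.96 and 7.17 FPKM in the 2 groups. PIK3R2 was between 8.75 and 11.6 FPKM in 5 libraries and at 17.64 FPKM in LV-SNORA28 3, with a log2 fold change of 0.36 (adjusted p 0.289 in limma) that was 0.14 without that library. PIK3R1 was at 0.48, 0.42 and 0.46 FPKM with LV-NC and at 0.55, 0.54 and 0.61 FPKM with LV-SNORA28. PIK3R3 was at 0.17, 0.26 and 0.27 FPKM with LV-NC and at 0.44, 0.38 and 0.43 FPKM with LV-SNORA28. In the fit without a filter these low genes had adjusted p of 0.599 and 0.208 in limma.

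The kinases downstream of PI3K were not called. AKT1 was at 5.74, 5.82 and 8.63 FPKM with LV-NC and at 9.57, 9.06 and 8.39 FPKM with LV-SNORA28. The groups overlapped through LV-NC 3, and the log2 fold change was 0.39 (SE 0.15, adjusted p 0.145 in limma). Without LV-NC 3 it was 0.56 (adjusted p 0.0362 in limma). AKT2 was at 5.58, 5.18 and 5.26 FPKM with LV-NC and 5.68, 4.89 and 4.97 FPKM with LV-SNORA28, a log2 fold change of -0.04 (95% interval -0.22 to 0.15). PDPK1, which phosphorylates AKT in its activation loop, was at 1.95, 3.7 and 4.77 FPKM with LV-NC and at 5.44, 5.56 and 6.0 FPKM with LV-SNORA28. The LV-NC libraries were widely spread but all lower, and the log2 fold change was 0.63 (SE 0.23, adjusted p 0.139 in limma). Without LV-NC 1 it was 0.36, below 1.5-fold. Reads of PDPK1 can be shared with its near copy PDPK2P, at 0.77 and 1.26 FPKM in the 2 groups. SGK1, a related kinase, was between 0.43 and 0.54 FPKM in all 6 libraries, with a log2 fold change of 0.03 (adjusted p 0.883 in limma without a filter).

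Among AKT substrates, the cell cycle inhibitor CDKN1B was at 13.14, 15.09 and 13.73 FPKM with LV-NC and at 10.94, 12.01 and 12.99 FPKM with LV-SNORA28. Its LV-SNORA28 libraries all lay lower, with a log2 fold change of -0.21 (adjusted p 0.171 in limma). GSK3A, a kinase that AKT inhibits, had 0.09. The transcription factors FOXO1, FOXO3 and FOXO4 overlapped between the groups, with log2 fold changes of 0.09, 0.18 and 0.42 and adjusted p of 0.552, 0.284 and 0.165 in limma. FOXO3 was the most abundant of them, at 6.09 and 7.03 FPKM, and has a near copy, FOXO3B, at 0.79 and 0.83 FPKM.

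In the TSC complex, which keeps RHEB inactive, TSC1 was at 2.09 and 2.27 FPKM and TSC2 at 3.13 and 2.97 FPKM in the 2 groups, with log2 fold changes of 0.10 and -0.06. RHEB was at 15.4 and 17.1 FPKM, with 0.15 (adjusted p 0.371 in limma), beside its pseudogenes RHEBP1 (13.7 and 11.7 FPKM) and RHEBP2 (25.2 and 29.8 FPKM), so its level is uncertain. The S6 kinases RPS6KB1 and RPS6KB2, which act downstream of mTOR complex 1, had log2 fold changes of 0.00 and 0.06. RPS6KB1 reached 12.11 FPKM in LV-SNORA28 1 and 7.82 FPKM in LV-SNORA28 2, so both the highest and the lowest of the 6 libraries were in that group.

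Within 1 library, the ratio of 2 genes does not depend on how the library was scaled. Of 11 ratios between related genes, 5 did not overlap between the groups. As written they were higher with LV-SNORA28, but this direction depends on which gene was set as numerator. For comparison, 27.0% of single genes lay higher and 8.16% lower without overlap, and no share for ratios of other gene pairs is given. Of the 5 ratios, 2 (RRAGC over RRAGA and PHLPP2 over PHLPP1) have a called gene as numerator. IRS1 over IRS2 was 4.07, 3.34 and 3.71 in LV-NC and 6.46, 6.28 and 6.42 in LV-SNORA28, a log2 difference of 0.79. PHLPP2 over PHLPP1 was 0.366, 0.379 and 0.365 in LV-NC and 0.636, 0.790 and 0.551 in LV-SNORA28, a log2 difference of 0.82. The adaptor ratio was thus nearly as far apart as that of the phosphatases, although neither adaptor was called by itself. RRAGC over RRAGA differed by 0.73 on the log2 scale, AKT1 over AKT2 by 0.49 (1.03, 1.12 and 1.64 against 1.69, 1.85 and 1.69) and INSR over IGF1R by 0.44. Each of the 5 had an exact two-sided permutation p of 0.1, the smallest possible, which became 0.22 after Benjamini-Hochberg adjustment over the 11 ratios, so none can pass in this design. RICTOR over RPTOR (log2 difference -0.06), RPS6KB1 over RPS6KB2 (-0.07), PIK3R1 over PIK3R2 (-0.07), FOXO3 over FOXO1 (0.07), TSC1 over TSC2 (0.22) and PIK3CA over PIK3CB (0.47) overlapped.

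**Figure D3:**
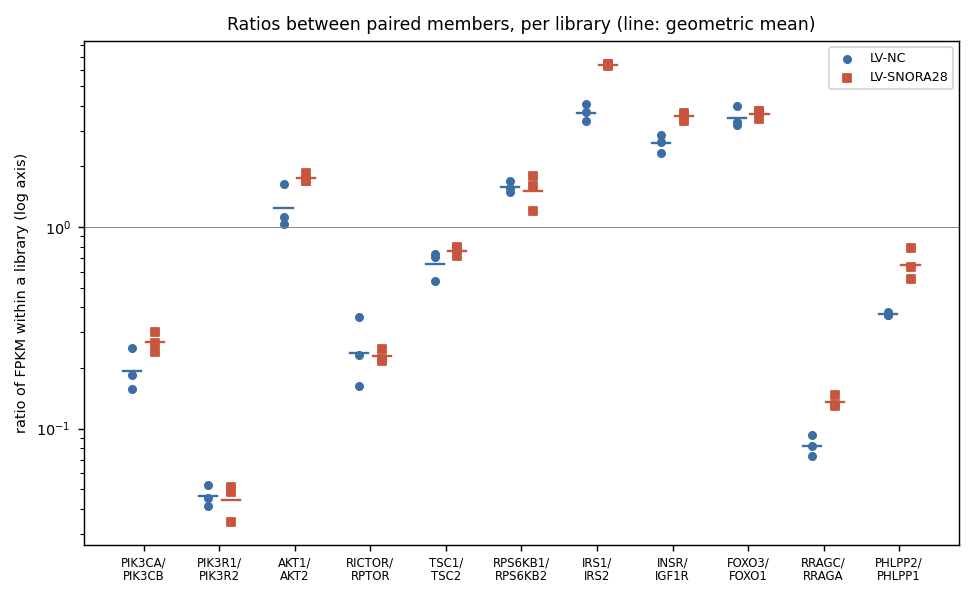
Ratio of the FPKM of 2 related genes within a library, on a log axis, for the 11 pairs, with 1 point per library (blue circles LV-NC, red squares LV-SNORA28) and a line at the geometric mean of each group (n = 3). IRS1/IRS2, PHLPP2/PHLPP1, RRAGC/RRAGA, AKT1/AKT2 and INSR/IGF1R lie higher in all 3 LV-SNORA28 libraries, and the other 6 overlap.

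Other genes of the pathway, a list of 82 of which 65 were tested, were described in the same fit. In it, 11 rose and 2 fell (20.0% called, beside 8.91% of all genes tested), while the median log2 fold change was 0.09, as over all genes. The list was chosen with earlier results of these data known, so its share called is a description and not evidence of enrichment. GRB10, an adaptor that inhibits insulin and IGF1 receptors, was at 2.08, 1.75 and 2.0 FPKM with LV-NC and at 4.48, 4.81 and 4.88 FPKM with LV-SNORA28 (log2 fold change 0.96, SE 0.08, adjusted p 0.00305 in limma). PPP2R5A, a regulatory subunit of PP2A, rose from 5.63 to 11.7 FPKM (0.93, adjusted p 0.00432 in limma). LAMTOR4, part of the Ragulator that anchors Rag GTPases on the lysosome, rose from 8.20 to 14.9 FPKM (0.79, adjusted p 0.00399 in limma), whereas its partner LAMTOR3 fell from 4.52 to 3.00 FPKM (-0.47, adjusted p 0.0205 in limma). These called genes of the Ragulator thus moved in opposite directions. LAMTOR1, LAMTOR2 and LAMTOR5 were not called, with log2 fold changes of 0.05, 0.12 and 0.30, and only LAMTOR5 of them did not overlap between the groups. The LAMTOR3 call was kept among the left-out libraries only without LV-SNORA28 2 and was lost without each of LV-NC 1, LV-NC 2, LV-NC 3, LV-SNORA28 1 and LV-SNORA28 3 (adjusted p up to 0.0795 in limma). It was also lost without a filter (0.0553) and with the replicate block (0.0616).

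ULK1, the kinase that starts autophagy and that mTOR complex 1 inhibits, rose from 2.51 to 4.84 FPKM (log2 fold change 0.74, adjusted p 0.00696 in limma). PRKAA1, a catalytic subunit of the energy sensor AMPK, rose from 4.29 to 7.38 FPKM (0.66, adjusted p 0.0102 in limma). The translation factor EIF4B, a substrate of S6 kinases, was at 150.97, 145.62 and 136.46 FPKM with LV-NC and at 85.69, 83.01 and 84.75 FPKM with LV-SNORA28. It fell with a log2 fold change of -0.76 (SE 0.06, adjusted p 0.00276 in limma). Its pseudogenes EIF4BP3, EIF4BP6 and EIF4BP7 had log2 fold changes of -0.14, -0.14 and -0.20, none of them called. The other 6 genes called higher were TRIB3, CASTOR2, PPP2R2A, PDCD4, PPP2R5C and DDIT4, with log2 fold changes between 0.28 and 0.63. CASTOR2 can share reads with its near copy CASTOR3P, whose log2 fold change was 0.06.

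**Figure D4:**
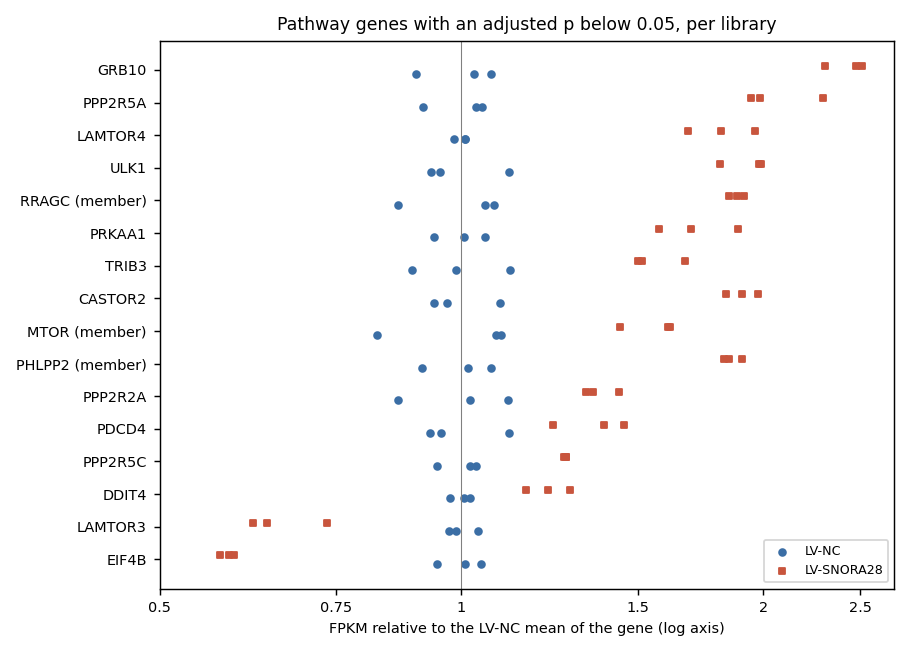
FPKM of each library divided by the LV-NC mean of the gene, on a log axis (blue circles LV-NC, red squares LV-SNORA28, n = 3 per group), for RRAGC, MTOR and PHLPP2, marked as members of the core, and for the 13 genes called in the longer pathway list. The groups do not overlap for any gene, beside 27.0% (higher) and 8.16% (lower) of all genes tested. The genes were picked by adjusted p in this same comparison, so the lack of overlap largely follows from that choice. EIF4B and LAMTOR3 are the ones lower in LV-SNORA28.

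Target genes of FOXO factors, which AKT holds out of the nucleus, were 25 in number, and 18 of them were tested. Whether their RNA reflects AKT activity was not tested. In this list 2 rose and 1 fell (16.7% called, beside 8.91% of all genes tested). It too was chosen with earlier results of these data known, so its share and median are descriptions and not evidence of enrichment. KLF2, a transcription factor, rose from 6.66 to 10.9 FPKM (log2 fold change 0.64, adjusted p 0.00986 in limma), and GADD45A, a DNA damage response gene, rose from 27.0 to 33.6 FPKM (0.31, adjusted p 0.0465 in limma). CITED2, a transcriptional coregulator, fell from 19.3 to 15.6 FPKM (-0.29, adjusted p 0.0488 in limma). The calls of GADD45A and CITED2 were lost with each of the 6 libraries left out (adjusted p up to 0.139 and 0.155 in limma), while that of KLF2 was kept in all. GADD45A also lost its call with nuclear scaling (adjusted p 0.0566 in limma), quantile normalization (0.0937) and the GC trend removed (0.130), and both genes lost it without the trend, without a filter and with the replicate block. The median log2 fold change of the 18 genes was 0.22, beside 0.09 over all genes tested, with 14 of 18 values positive, beside 66.7% of all genes tested.

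The genes of the core have long transcripts. Their median transcript length was 5412 nt and their median 3′ UTR 2041 nt, beside 3275 and 1290 nt over 10557 genes tested with an annotated 3′ UTR. The 7-mer GTGTCAC, which is part of the short sequence listed for LV-NC, occurred in the 3′ UTR of 10 of the 41 genes (24.4%) and of 9.69% of those 10557 genes. RRAGC and PHLPP2 hold it and MTOR does not. The median log2 fold change was 0.32 in the 10 genes and 0.06 in the other 31, against 0.17 and 0.08 in all genes with and without it. The part of transcript length, of this 7-mer and of the mitochondrial share in these results was not tested. RRAGC, MTOR and PHLPP2 stayed called when FPKM was rescaled to the nuclear sum. That rescaling moved their log2 fold changes little, from 0.69, 0.57 and 0.49 to 0.67, 0.55 and 0.48. The calls kept there therefore do not test the mitochondrial share.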

How the data were processed

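Poly(A)-selected RNA from 6 HCT116 libraries was sequenced by the authors as paired ends after stranding by the dUTP method. The authors deposited 1 table per library of FPKM values for 60612 Ensembl genes. Per the submitters' processing notes, cutadapt 1.9, HISAT2 2.2.1 and StringTie 2.1.6 and the build hg38 were used, and DESeq2 and edgeR are named without a version. The annotation release, filters, strand setting and mapped totals are not given in the sources used here, so the depth is unknown and no counting interval was attached. Groups came from the sample titles. No pair of libraries was alike, as each differed in at least 26342 genes.

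Symbols and coordinates were taken from GENCODE release 44 and promoters from RefSeq (GRCh38.p14). Values were transformed to log2(FPKM + 1), and genes averaging 1 FPKM or more were fitted with limma 3.58.1 in R 4.3.3 (mean-variance trend, two-sided, Benjamini-Hochberg over 12076 genes). Fold changes are on this scale, which understates those of low genes, and ratios of means are on the FPKM scale. Genes below the filter were read from a fit without it. Ratios and shares were tested with exact permutation tests in Python 3.11.15. The fit was tested on simulated data.

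All 44 genes are accounted for, and those with an adjusted p below 0.05 in the fit or in any alternative are given in every library. From the other lists, up to 5 called genes in each direction with the largest change are given with values. The members and lists were chosen with earlier results of these data known. The lists come from general knowledge, and 1 symbol in each of the pathway list and the FOXO list had no match. Near copies and overlapping genes were picked after their values were seen. Alternatives were no trend, quantile normalization, scaling to the nuclear FPKM sum, a mean of at least 5 FPKM, no filter, a pseudocount of 0.1, a replicate block, removal of the GC trend, a fold change above 2 and each library left out in turn.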

Additional observations from a re-analysis of the deposited data

How the results depend on the processing

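Of all genes, 1076 were called (822 higher, 254 lower). The count was 397 without a filter, 510 with the replicate block, 706 with the GC trend removed (366 higher, 340 lower) and 278 to 629 with 1 library left out, and the split was 451 higher and 375 lower with quantile normalization. The 3 genes of the core called higher became 1 at the filter of 5 FPKM (MTOR, since RRAGC and PHLPP2 were not tested), 1 without a filter (RRAGC), and 1 to 4 with 1 library left out, and genes called lower became 1 with quantile normalization (IRS2) and stayed at 0 with 1 library left out. The 13 other pathway genes called became 8 at the filter of 5 FPKM, without a filter or with the replicate block, and 7 to 9 with 1 library left out. The 3 FOXO targets called became 1 without the mean-variance trend, without a filter or with the replicate block, and 1 to 2 with 1 library left out. The member median of 0.09 was 0.0013 with quantile normalization, which brought that of all genes to -0.0013, and 0.06 to 0.13 with 1 library left out. At the threshold of the study, 2 genes became 5 with the pseudocount of 0.1, 0 at a fold change above 2 and 1 to 3 with 1 library left out. No share of all genes is given for that threshold at these settings. The cause of the changes in these counts and medians was not tested. Fewer genes entered at the filter of 5 FPKM (6241 against 12076), but more entered without a filter (32761). Fits with 1 library left out used fewer samples. The replicate block and the removal of the GC trend used the same 12076 genes.

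The sign of a single gene turned only in genes that were not called. With quantile normalization the log2 fold change was -0.0364 for PIK3CB, -0.0244 for PHLPP1, -0.0773 for RPTOR, -0.0372 for MLST8, -0.0039 for DEPTOR, -0.0824 for RPS6KB1, -0.0415 for RPS6KB2 and -0.0496 for PPP2R1A. With the GC trend removed it was -0.0844 for PIK3CB, -0.012 for RPTOR, -0.0229 for DEPTOR, -0.17 for RPS6KB1, -0.0062 for FOXO1 and -0.024 for PPP2R1A, and with nuclear scaling -0.0051 for RPTOR and -0.0195 for RPS6KB1. With quantile normalization the value kept its sign but shrank by more than 1.5 times for further genes that were not called. These were RRAGA (0.10), DEPDC5 (0.08), INSR (0.16), FOXO3 (0.08), RHEB (0.07), GSK3A (0.02), TSC1 (0.01), NPRL3 (0.04) and FOXO1 (0.0013). Without LV-NC 2 it shrank as much for FOXO4 (0.26). With 1 library left out the ranges crossed 0 for PIK3CB (-0.043 to 0.16), INPP4B (-0.17 to 0.0787), PHLPP1 (-0.0388 to 0.17), RPTOR (-0.0706 to 0.10), RICTOR (-0.27 to 0.15), MAPKAP1 (-0.10 to 0.0565), DEPTOR (-0.0507 to 0.26), AKT1S1 (-0.0536 to 0.49), TSC1 (-0.0423 to 0.20), RPS6KB1 (-0.16 to 0.12), IGF1R (-0.15 to 0.0161), NPRL2 (-0.15 to 0.0088), NPRL3 (-0.0056 to 0.22), WDR24 (-0.0656 to 0.0251), RRAGD (-0.10 to 0.0346) and PPP2R1A (-0.004 to 0.0814).

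Replicate numbers are shared between the groups, but deviations of libraries with the same number correlated at only -0.04, 0.09 and 0.01 across genes, so the numbers were not taken as pairs. Under the replicate block, 481 of the 510 genes called were also called without it, and RRAGC and MTOR stayed called. A count model could not be run, since FPKM and no counts were used. Without mapped totals, the precision of low genes such as PHLPP2 is not known beyond the spread between libraries.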
